A study of Homo sapiens with 3 samples.

Results

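miR-103a-3p, miR-103b and miR-107 are the mature microRNAs read from introns of the pantothenate kinase genes PANK3, PANK2 and PANK1. They are the rows hsa-miR-103a-3p, hsa-miR-103b and hsa-miR-107, 3 of the 1149 miRNAs in the deposited table. They were chosen by their levels in these same 3 libraries and by their related sequences, so the values below are a description, with no test. They were measured by small RNA sequencing of CAL-27, a human cell line established from a tongue carcinoma of squamous type, in 3 libraries with 1 library per group. CC came from untreated control clones. The clones of the library labelled Mock are called mock-treated in the design text of the series, which gives a single exposure to 2 Gy of X-rays for them in the same place. Whether they were irradiated is thus not settled, and Mock over CC is given below as a difference between these libraries only. RR came from radioresistant single-cell clones isolated after 2 cycles of 5 daily exposures to 2 Gy, each cycle being followed by 2 weeks of recovery. Whether a library pooled clones is not stated in the labels, and clones of 1 line can differ from each other whatever their treatment. The treatment tags give a dose for RR and irradiation without a dose for Mock, so that their assignment rests on the titles, and each direction refers to the library labelled so.

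MicroRNAs are cut from hairpin transcripts and pair with messenger RNAs mainly through bases 2 to 8 of the mature strand, the seed. miR-103a-3p and miR-107 are known as brakes on DICER1, the enzyme that makes miRNAs, and on CAV1, which supports insulin signalling. The PANK hosts catalyse the first step of coenzyme A synthesis. miR-103b is annotated on the strand opposite to miR-103a.

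The mature sequences, which in the table equal those of RefSeq, are shown first because the near-identity of the first pair and the mirrored sequence of miR-103b bear on every value that follows. Capitals mark the seed.
miR-103a-3p: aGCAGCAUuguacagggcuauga
miR-107: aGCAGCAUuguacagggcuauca
miR-103b: uCAUAGCCcuguacaaugcugcu

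miR-103a-3p and miR-107 shared the seed GCAGCAU, found in 2 of the 1149 listed miRNAs, which are these 2. Counted from the 5′ end, they differed by the single substitution G22C (miR-103a-3p first) in 23 bases, and their first 21 bases were the same. A read that ends at base 21 or earlier cannot be told apart between them. The rule for such reads was not given in the sources used here, and the split between both is uncertain for that reason. miR-103b was the exact reverse complement of miR-103a-3p over all 23 bases and had another seed. All 3 sequences had the same length and a GC content of 47.8%.

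The hairpins lie in introns, at RefSeq coordinates of GRCh38.p14 that the GENCODE release 29 annotation repeats. MIR103A1 spans chromosome 5, 168560896 to 168560973 on the minus strand, in intron 5 of PANK3 (7 exons). MIR103A2 spans chromosome 20, 3917494 to 3917571 on the plus strand, in intron 5 of PANK2. MIR107 spans chromosome 10, 89592747 to 89592827 on the minus strand, in intron 5 of PANK1. All 3 are read in the direction of their host, and no annotated exon of a host transcript overlaps them. The numbering follows the principal transcript of each host. MIR103B1 (chromosome 5, 168560904 to 168560965, plus strand) and MIR103B2 (chromosome 20, 3917502 to 3917563, minus strand) lie within the miR-103a hairpins on the opposite strand, antisense to PANK3 and PANK2. The PANK3 pair of hairpins shows the arrangement, with the mature strand in capitals.
MIR103A1: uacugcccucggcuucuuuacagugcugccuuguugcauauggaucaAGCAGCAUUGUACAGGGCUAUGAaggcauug
MIR103B1: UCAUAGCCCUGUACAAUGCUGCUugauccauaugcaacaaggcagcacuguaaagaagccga

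The same mature miR-103a-3p comes from both PANK3 and PANK2, and mature miR-103b from both antisense hairpins, so the reads cannot be divided between these loci.

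Values are in rpm, reads per 1000000 reads of a library total of 10473400 to 10769990. The 1149 miRNAs made up 16.3% (CC), 23.2% (Mock) and 20.5% (RR) of that total. Intervals are exact 95% intervals for counting error only, which leaves out the spread between cultures and copies made by PCR. In bulk RNA, fewer cells with a miRNA and less of it per cell cannot be told apart. Each of the 6 squamous epithelial markers reached a mean of 10 rpm, and their summed level was 38878 rpm in CC, 29789 rpm in Mock and 45298 rpm in RR. The lower sum in Mock came from miR-205-5p, the most abundant of them (25945, 14174 and 29651 rpm). Each of the others was higher in Mock than in CC, miR-203a-3p within counting error.

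miR-103a-3p, the most abundant of the 3, was highest in the library labelled Mock. It stood at 128 rpm in CC (1382 reads, interval 122 to 135), 416 rpm in Mock (4419 reads, 403 to 428) and 187 rpm in RR (1962 reads, 179 to 196). The 3 counting intervals did not overlap, with the order Mock, RR, CC. It ranked 77th of 1149 in CC, 55th in Mock and 74th in RR. The fold was 3.24 for Mock over CC (3.05 to 3.44) and 1.46 for RR over CC (1.36 to 1.57). The latter lay above the median of 1.28-fold over the 208 miRNAs averaging 10 rpm or more and ranked 34 from the highest among them, and its log2 ratio of 0.54 shrank to 0.16 with median-ratio scaling of the libraries.

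miR-107 followed the same order at a far lower level. It stood at 4.46 rpm in CC (48 reads, 3.29 to 5.91), 14.5 rpm in Mock (154 reads, 12.3 to 17.0) and 4.96 rpm in RR (52 reads, 3.71 to 6.51). Mock lay above both others, while CC and RR overlapped. Mock over CC was 3.25-fold (2.34 to 4.59), beside 3.24-fold for miR-103a-3p. RR over CC was 1.11-fold, and no change lay within its interval (0.738 to 1.68). Its log2 ratio of 0.13 turned to -0.19 with median-ratio scaling, to -0.13 without the 10 most abundant miRNAs in the scale and to -0.15 when divided by all miRNA reads. With a mean of 7.97 rpm, miR-107 did not reach the minimum of 10 rpm for the counts below.

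miR-103b went the other way in Mock over CC. It stood at 21.4 rpm in CC (230 reads, 18.7 to 24.3), 8.65 rpm in Mock (92 reads, 6.98 to 10.6) and 3.82 rpm in RR (40 reads, 2.73 to 5.20). CC was highest and RR lowest, with no overlap of the counting intervals. In CC miR-103b was above miR-107, in Mock it was below, and in RR their intervals overlapped.

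**Figure D1:**
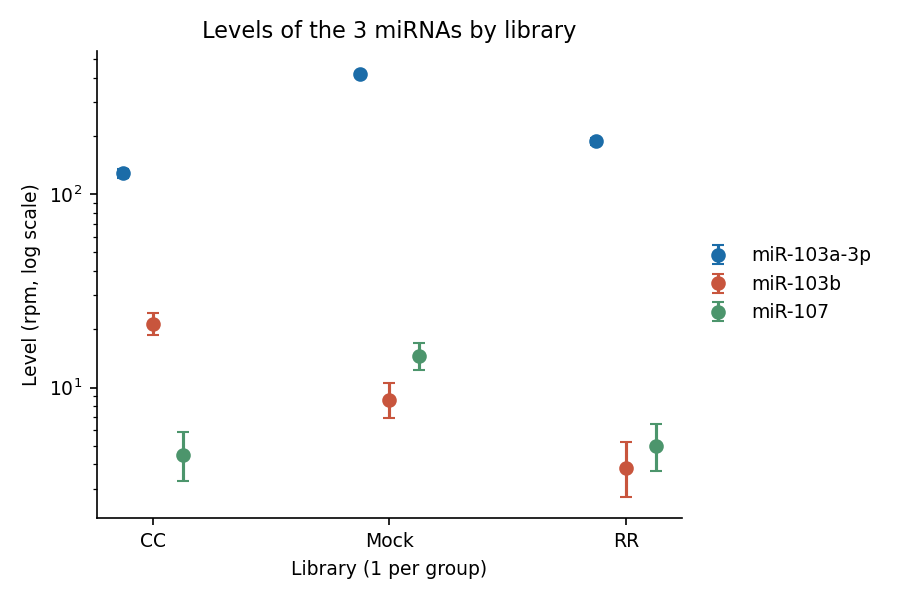
Levels in rpm (log scale) of miR-103a-3p, miR-103b and miR-107 in the 3 libraries, 1 per group; bars are exact 95% Poisson intervals. miR-103a-3p and miR-107 are highest in Mock (416 and 14.5 rpm), whereas miR-103b is highest in CC (21.4 rpm).

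Of the 3 miRNAs, 2 reached a mean of 10 rpm and could be counted as past 2-fold (log2 ratio of rpm + 1 of at least 1 in size). The values that chose the miRNAs are those counted, so nothing is read from these counts. In RR over CC miR-103b was counted as lower, at a log2 ratio of -2.21. It was the only 1 of the 208 miRNAs counted so, and the share of 0.481% is miR-103b itself. Its mean of 11.3 rpm reached the minimum only through CC, as Mock and RR lay below 10 rpm. A count as lower than CC is thus partly fixed by the filter. In Mock over CC miR-103a-3p was higher (1.69), as were 12.0% of the 208, and miR-103b was lower (-1.21), as were 3.85%. In RR over Mock both were lower, miR-103a-3p at -1.15 and miR-103b just past the threshold, and 4.81% of the 208 were so counted. For RR over Mock, with the GC trend removed or with scaling without the 10 most abundant miRNAs, 1 was counted in place of 2. Relative to all miRNA reads it was 0. RR was 2.22-fold below Mock for miR-103a-3p (2.10 to 2.34), 2.92-fold for miR-107 (2.12 to 4.08) and 2.27-fold for miR-103b (1.55 to 3.37). The 3 fold differences between RR and Mock were thus of like size, with overlapping intervals, although their order against CC differed. RR over CC and Mock over CC share the CC library. The counts over the 208 depend on the scaling: in Mock over CC 25 were higher and 8 lower as deposited, 10 and 18 with median-ratio scaling, and 7 and 31 relative to all miRNA reads. Median-ratio scaling moved the median log2 ratio of the 208 from 0.36 to -0.02 in RR over CC and from 0.28 to -0.01 in Mock over CC.

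**Figure D2:**
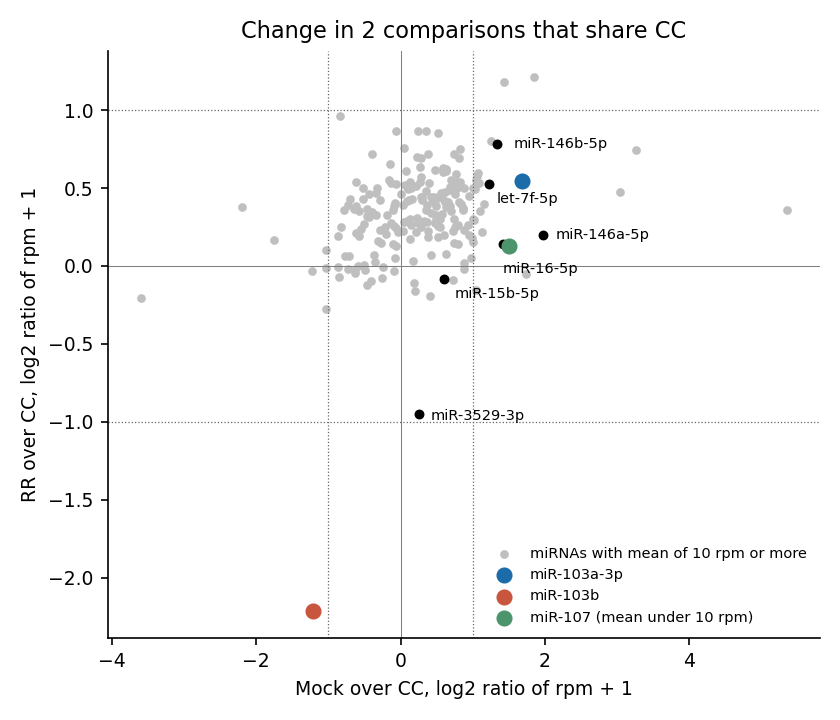
Log2 ratio of rpm + 1 for Mock over CC (horizontal) and RR over CC (vertical), 1 point per miRNA averaging 10 rpm or more, plus miR-107; dotted lines mark 2-fold, and both axes share the CC library. miR-103a-3p (1.69, 0.54) lies right of most points and miR-103b (-1.21, -2.21) lies alone at the lower left among the points drawn. miR-374c-3p, which averages 8.14 rpm and is not drawn, would lie further out there (-4.07, -4.38). Black points are other miRNAs that the text names.

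Shares within a library do not depend on how libraries are scaled. Of the reads of miR-103a-3p and miR-103b together, miR-103b took 14.3% in CC (exact binomial interval 12.6% to 16.1%), 2.04% in Mock (1.65% to 2.50%) and 2.00% in RR (1.43% to 2.71%). By this measure CC stood apart, and Mock and RR overlapped almost fully. The lower rpm of miR-103b in RR than in Mock thus went with a like difference in miR-103a-3p, and the lower rpm in Mock than in CC did not. Adding the miR-107 reads to the denominator gave 13.9%, 1.97% and 1.95%. Of the reads of miR-103a-3p and miR-107 together, miR-107 took 3.36% in CC (2.49% to 4.43%), 3.37% in Mock (2.86% to 3.93%) and 2.58% in RR (1.93% to 3.37%), with intervals that overlapped throughout.

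**Figure D3:**
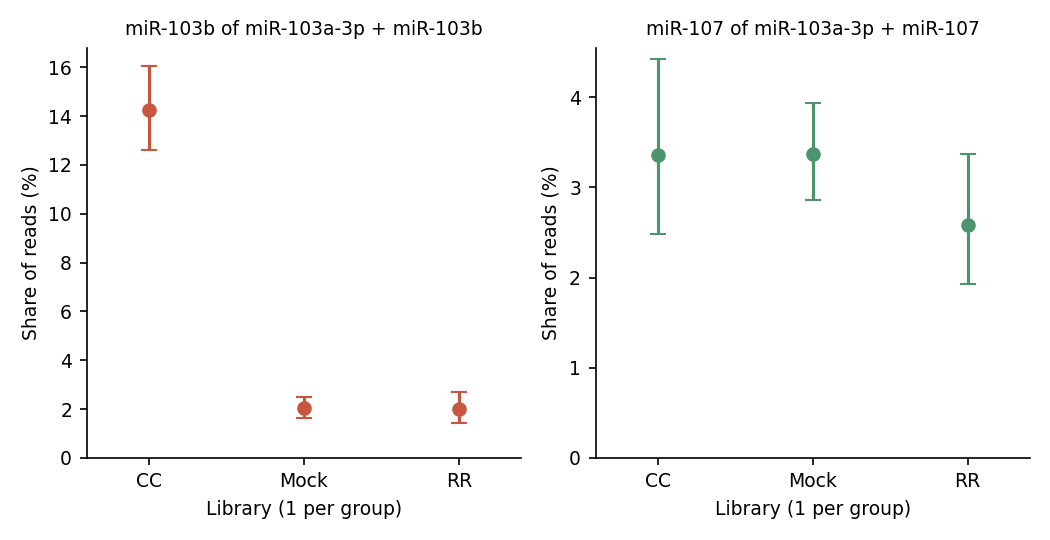
Share of reads, in percent, of miR-103b among miR-103a-3p plus miR-103b (left) and of miR-107 among miR-103a-3p plus miR-107 (right) in each library; bars are exact 95% binomial intervals and the vertical axes differ. The left panel shows CC at 14.3% and both others near 2%, whereas the intervals in the right panel overlap in all 3 libraries.

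The split of miR-103a-3p and miR-107 was compared with that of other miRNAs of equal length that differ by 1 base. Among 17 such pairs, this one included, with a mean of 1 rpm or more for each miRNA, the share of the less abundant one differed between libraries by 1.08-fold to 4.04-fold (highest over lowest), with a median of 1.41-fold. It differed by 1.30-fold for miR-107. The lowest value belonged to miR-27a-3p with miR-27b-3p and the highest to miR-320a-3p with miR-320b. Some pairs share a miRNA, and the pairs differ in where the differing base lies. It is base 22 for miR-107 and base 21 for miR-320b, but base 9 for let-7a-5p with let-7e-5p and base 12 for let-7a-5p with let-7f-5p. A read has to cover that base to be told apart. The median over the pairs is thus not a like measure for miR-107.

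miR-103b was also set beside the other listed miRNAs that are reverse complements of each other. The table held 39 pairs complementary over 18 or more bases, and 18 of them had mature sequences overlapping on opposite strands of 1 locus in RefSeq. In 5 of the 18 the less abundant miRNA had 100 or more reads in all, a minimum set after the values were seen. Its share of the pair was at least 2-fold higher in CC than in both other libraries in 2 of these 5, miR-103b and miR-374c-3p. The values of miR-103b chose it. miR-374c-3p passed the minimum only through CC, with 256 reads there, 5 in Mock and 2 in RR. A share highest in CC is thus partly fixed by the minimum, and nothing is read from this count. miR-374c-3p, annotated opposite to miR-374b-5p on chromosome X (74218587 to 74218608, GRCh38.p14, plus strand), has 22 bases complementary to it, and both are shown with the seed in capitals.
miR-374b-5p: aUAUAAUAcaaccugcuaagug
miR-374c-3p: cACUUAGCagguuguauuauau

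miR-374c-3p had 256 reads in CC (23.8 rpm), 5 in Mock (0.470 rpm) and 2 in RR (0.191 rpm). It took 34.5% of the reads of its pair in CC (31.1% to 38.0%), 0.671% in Mock (0.218% to 1.56%) and 0.302% in RR (0.0366% to 1.09%), whereas miR-374b-5p stood at 45.1, 69.6 and 63.1 rpm. Its GC content of 31.8% is far from that of miR-103b. miR-374c-3p was chosen after its values were seen. The other 3 pairs were flatter. miR-3184-5p took 2.36%, 2.78% and 2.92% of its pair with miR-423-3p in CC, Mock and RR, miR-3184-3p 3.23%, 2.65% and 2.38% of its pair with miR-423-5p, and miR-3074-5p 0.540%, 0.733% and 0.460% of its pair with miR-24-3p. Of the 39 pairs, 4 had both miRNAs averaging 10 rpm or more: those of miR-103b, miR-3184-3p and miR-3184-5p, and miR-3529-3p with miR-7-5p, which are reverse complements over 24 bases. miR-3529-3p took 0.981% of that pair in CC, 0.639% in Mock and 0.506% in RR. Whether reads of these minor strands come from RNA of the opposite strand or from a step of library making or counting was not tested.

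The opposite arms of the miR-103a hairpins were close to absent. miR-103a-1-5p had 0 reads in CC and Mock and 1 in RR, and miR-103a-2-5p had 3, 0 and 2. Over the 3 libraries the 5p arms made up 6 of 7769 reads of the miR-103a arms, or 0.0772% (0.0283% to 0.168%). Among 67 other hairpins with both arms listed by name and a summed mean of 100 rpm or more, the median share of the minor arm was 0.920%, and 14 had a lower share.

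The hexamer AGCAGC at base 1 or 2 marks the superfamily of miR-15, miR-16 and miR-107, whose first members are known as brakes on BCL2 and cyclins. It was found there in 9 of the 1149 miRNAs, 0.783%, starting at base 1 in miR-103a-3p and miR-107 and at base 2 in the other 7. All 9 are on the list of 11 superfamily members used here. Of the 7 others, 2 averaged 10 rpm or more. miR-16-5p stood at 46.8 rpm in CC, 127 rpm in Mock and 51.7 rpm in RR, with Mock over CC at 2.71-fold (2.44 to 3.00) and RR over CC at 1.10-fold (0.976 to 1.25). miR-15b-5p stood at 120, 183 and 114 rpm, with Mock over CC at 1.52-fold (1.42 to 1.63) and RR over CC at 0.944-fold (0.872 to 1.02). Both were thus highest in Mock, and in both the interval for RR over CC included no change. miR-503-5p had 45 reads in CC, 79 reads in Mock and 56 reads in RR, miR-15a-5p 9, 29 and 16, and miR-424-5p 7, 15 and 6. miR-195-5p had 2, 4 and 4 reads and miR-6838-5p 0, 1 and 0. Without miR-103a-3p, whose own values chose it, 1 of the 2 superfamily miRNAs averaging 10 rpm or more was higher by 2-fold or more in Mock over CC (miR-16-5p), beside 12.0% of the 208. The median log2 ratio of these 2 was 1.01, beside 0.28 over all 208. Their GC content was 45.5% (miR-16-5p) and 40.9% (miR-15b-5p), and Mock over CC followed GC content, as given below. Nothing is read from a count or median of 2.

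**Figure D4:**
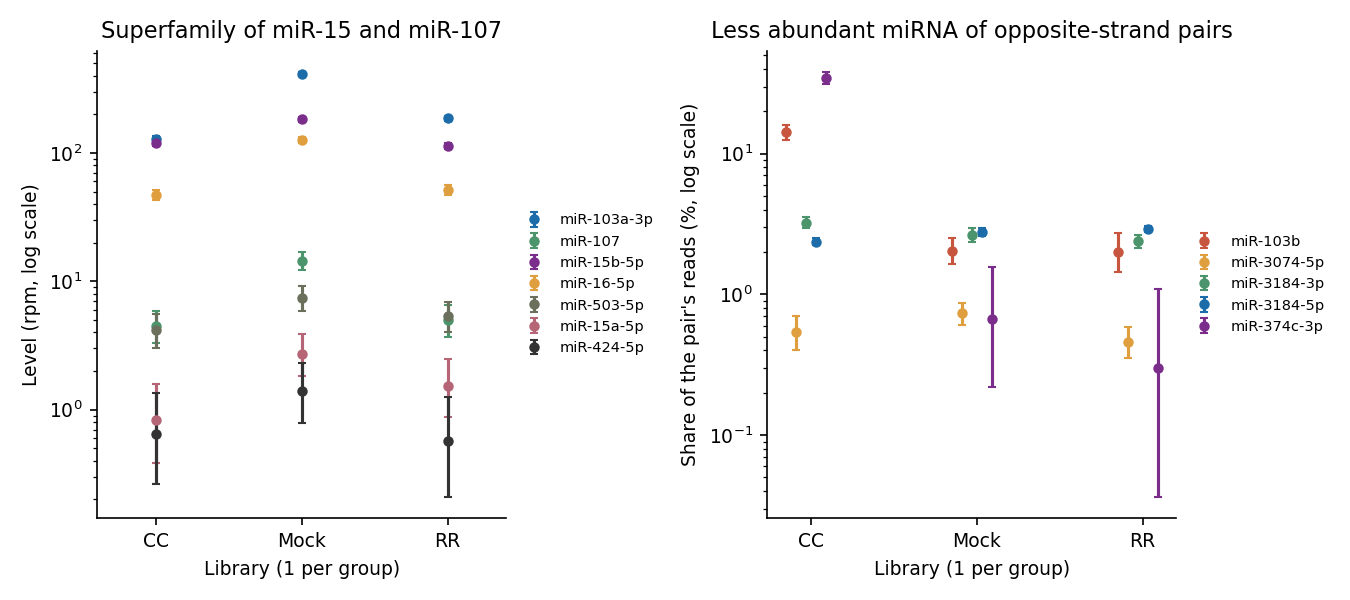
Left, levels in rpm (log scale) of 7 miRNAs of the superfamily of miR-15 and miR-107 by library, with exact 95% Poisson intervals. All 7 are highest in Mock, though the intervals of the low ones overlap. Not drawn are miR-195-5p (2, 4 and 4 reads in CC, Mock and RR), which is not highest in Mock, and miR-6838-5p (0, 1 and 0). Right, share in percent (log scale) of the less abundant miRNA in 5 opposite-strand pairs, with exact 95% binomial intervals; miR-103b (14.3%) and miR-374c-3p (34.5%) stand far higher in CC than in Mock or RR, and the other 3 are flatter.

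Among the 208 miRNAs, those nearest to miR-103a-3p in the plane of both log2 ratios to CC were miR-146b-5p (distance 0.43 on the log2 scale), miR-146a-5p (0.45) and let-7f-5p (0.47). The levels of miR-146a-5p were 403 rpm in CC, 1591 rpm in Mock and 463 rpm in RR, and those of let-7f-5p were 7820, 18181 and 11258 rpm. miR-103b had no close neighbour: the nearest were miR-3529-3p (1.93), miR-877-5p (1.95) and miR-574-3p (2.17). miR-3529-3p stood at 42.6 rpm in CC, 50.8 rpm in Mock and 21.6 rpm in RR. miR-374c-3p, which is not among the 208 at a mean of 8.14 rpm, was lower than miR-103b in both log2 ratios (Mock over CC -4.07, RR over CC -4.38). The measure rests on 3 libraries.

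The lists of miRNAs that share the target DICER1 or a metabolic function with miR-103a-3p and miR-107 had no member past 2-fold in RR over CC, where 1.44% of the 208 were past it in either direction. Of 11 other miRNAs known to repress DICER1, each of which reached a mean of 10 rpm, the median log2 ratio was 0.53 in RR over CC, beside 0.36 for all 208, and 0.81 in Mock over CC, beside 0.28 for all 208. In Mock over CC 4 of 11 were higher by 2-fold or more, beside 12.0% of the 208, namely miR-98-5p, let-7g-5p, let-7f-5p and let-7c-5p. All 4 belong to the let-7 family, as do most of the 11, so these values mainly describe that family. The GC content of the 4 was 31.8% to 40.9%, and Mock over CC followed GC content, as given below. A link to DICER1 was not tested. The list of lipid, cholesterol and insulin metabolism had 13 names, with miR-375-3p also entered as miR-375. Of its miRNAs 4 averaged 10 rpm or more, and 0 were past 2-fold in any comparison. As 15.9% of the 208 were past it in either direction in Mock over CC and 13.0% in RR over Mock, nothing is read from a count of 0 among 4. In Mock over CC miR-378a-3p was 1.57-fold (1.55 to 1.60), miR-26a-5p 1.40-fold, miR-27b-3p 1.47-fold and miR-375-3p 0.715-fold (0.591 to 0.865).

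The ratios to Mock followed GC content across the 208 miRNAs, with a Spearman correlation of -0.55 for Mock over CC, 0.60 for RR over Mock and 0.05 for RR over CC (miRNAs of the same libraries, no test). As the 3 sequences have equal GC content, removing a trend on GC content moves them alike and leaves the differences between them as they are. Other traits of the sequences, such as their end bases, were not tested. The 76 miRNAs within 5 percentage points of that GC content had a median log2 ratio of 0.37 in Mock over CC, beside 1.69 for miR-103a-3p and -1.21 for miR-103b.

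**Figure D5:**
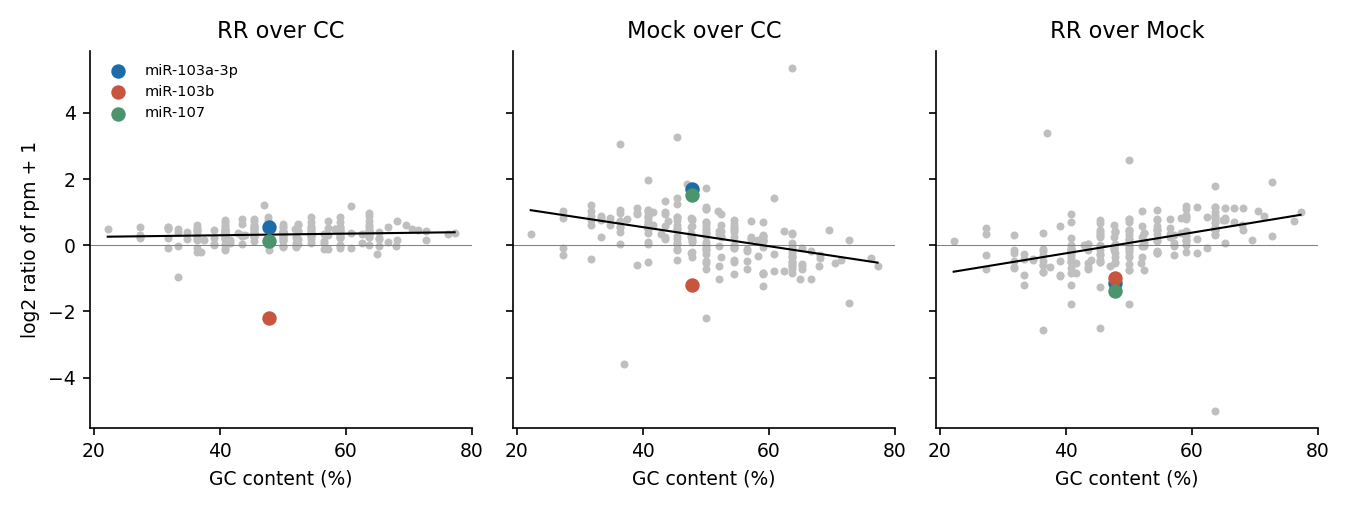
Log2 ratio of rpm + 1 against GC content in percent for each comparison, 1 grey point per miRNA averaging 10 rpm or more and a fitted line; the 3 coloured points are miR-103a-3p, miR-103b and miR-107. The coloured points share a GC content of 47.8% and lie up to several log2 units apart there in Mock over CC and RR over CC.

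Markers of blood moved with the high level of miR-103a-3p, miR-107 and miR-16-5p in Mock. All 4 erythroid markers were highest there, though miR-144-5p had only 0, 2 and 0 reads in CC, Mock and RR, below the floor of 3 reads. The summed level of the 4 was 9.47 rpm in CC, 408 rpm in Mock and 12.2 rpm in RR, most of it miR-486-5p (8.73, 398 and 11.5 rpm). miR-451a had 8 reads in CC, 82 reads in Mock and 8 reads in RR, and miR-144-3p had 0, 26 and 0. The 3 listed white blood cell markers summed to 0.0929, 1.98 and 0.0955 rpm. Of 4 skeletal muscle markers miR-206 had 19, 271 and 38 reads, whereas miR-1-3p stood at 338, 319 and 404 rpm. The part of other cells in the levels of the 3 miRNAs was not tested.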

How the data were processed

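Small RNA libraries were made by adapter ligation, PCR and size selection and read on a NovaSeq machine, per the labels' protocols. The submitters' processing notes name Bowtie and GRCh38 without their role. Trimming, the miRNA reference and the rule for reads matching more than 1 miRNA are each not given in the sources used here. The authors deposited 1 table of values that they call TPM and that behave as RPM: 100% of the values were whole multiples, within 0.01 of a read, of 1 step shared by all miRNAs of a library, so whole reads were recovered. No count model was fitted, as 1 library per group leaves no replicate spread.

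Columns were matched to libraries by the treatment tag and groups to titles. Log2 ratios used a pseudocount of 1 rpm, which understates the change of low miRNAs; folds used values as deposited. Intervals were exact Poisson for levels and Clopper-Pearson for shares and, through them, ratios. A floor of 3 reads is 0.279 to 0.286 rpm. Median-ratio scaling divided each library by its median ratio to the geometric mean over miRNAs, and the GC trend was a straight line of the log2 ratio on GC content, taken as 0 at 50%. Named miRNAs were the 3 themselves, those of the same hairpins, superfamily members, the 3 nearest by log2 ratios, reverse-complement pairs with both means at 10 rpm or more, and up to 4 per list by mean level; others counted as past 2-fold in a list, and miR-374c-3p, were added after their values were seen. One further list is not reported here. The miRNAs, lists and alternatives were chosen with earlier results of these data known. Sequences came from RefSeq (GRCh38.p14), matched for all 3, and hosts from GENCODE release 29. Lists of endothelial, fibroblast and smooth muscle, liver and neuronal markers summed to 55.2, 6.41, 4.46 and 170 rpm in CC, 66.9, 5.64, 5.45 and 303 in Mock and 81.9, 6.49, 2.96 and 224 in RR. The computation was tested on simulated data. Work was done in Python 3.11.15 with scipy 1.17.1, numpy 2.4.6, matplotlib 3.10.9 and pandas 2.3.3.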

Additional observations from a re-analysis of the deposited data

How the results depend on the processing

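With 1 library per group no library could be left out, and no paired analysis was possible because the groups share no more than 1 replicate number. Each log2 ratio past 2-fold kept its direction under every alternative run. Of the miR-103a-3p ratios, RR over CC (0.54) became 0.16 with median-ratio scaling, 0.21 relative to all miRNA reads (a share) and 0.23 when scaled without the 10 most abundant; Mock over CC (1.69) became 1.39, 1.18 and 1.34; RR over Mock (-1.15) became -1.23 with median-ratio scaling and -0.97 as a share. Mock over CC for miR-103b (-1.21) became -1.69 as a share. A pseudocount of 10, which by construction shrinks low miRNAs, gave miR-103b -1.18, -0.75 and -0.43 (RR over CC, Mock over CC, RR over Mock) and miR-107 0.76 and -0.71 (Mock over CC, RR over Mock). The number of the 3 miRNAs past 2-fold, 1 in RR over CC, was 0 with an average of at least 100 rpm. In Mock over CC it went from 2 to 1 with a pseudocount of 10, to 1 with an average of at least 100 rpm and to 0 at 4-fold. In RR over Mock it went from 2 to 1 with a pseudocount of 10, with scaling without the 10 most abundant, with the GC trend removed or with an average of at least 100 rpm, and to 0 as a share or at 4-fold. Without a filter on low values miR-107 joined, giving 3 in Mock over CC and 3 in RR over Mock. Ratios without a pseudocount and shares with miR-107 in the denominator, both added after the data were seen, moved by less than the counting interval. For miR-107, with 48 and 52 reads in CC and RR, the interval of 0.738-fold to 1.68-fold for RR over CC included no change. Its direction was thus not settled at this depth.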
